A study of Homo sapiens with 27 samples.

Results

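The genes examined here are 10 genes of the contractile actin programme that is controlled by serum response factor (SRF). They are SRF itself, the smooth muscle actins ACTA2 and ACTG2, the calponin family genes TAGLN, CNN1 and CNN2, the tropomyosins TPM1 and TPM2, the myosin light chain gene MYL9 and the adhesion gene VCL. Members were taken by gene symbol from a named list. The rule used no measured value, but the list was drawn up with earlier results of these data known. All 10 were found among the 55882 symbols counted. Of these, 9 had at least 1 count in every library, while ACTG2 had none in 3 libraries.

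SRF is a transcription factor that binds a short A/T-rich element, the CArG box, in the promoters of contractile genes and of immediate early genes. Its partners decide which of these it drives. Myocardin and the related factors MKL1 and MKL2 (also named MRTFA and MRTFB) activate contractile genes, and the related factors are held in the cytoplasm by free actin monomers, so that actin assembly releases them. Ternary complex factors (ELK1, ELK3 and ELK4) instead couple SRF to growth factor signalling and to genes such as FOS and EGR1. In smooth muscle, the products of these contractile genes form the thin filaments and the myosin that generate tension, and in mesenchymal cells in culture they are found in stress fibres.

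Poly(A) RNA was sequenced from U2OS cells, a human osteosarcoma line, that had been transduced with lentivirus and selected with puromycin to give 3 stable lines. The control, titled WT in the sample labels, carried pLKO.1 with no insert, while MMP2sh1 and MMP2sh2 expressed different short hairpin RNAs (shRNAs) against the mRNA of the protease gene MMP2. Each line was plated at low density and collected at day −2 (proliferating, subconfluent), day 0 (confluent) and day +2 (overconfluent), with 3 independent replicate libraries in each of the 9 groups. Whether a line was a pool or a clone was not stated in the sources used here, so a difference between lines cannot be told apart from a difference between the cells that founded them. In bulk RNA, fewer cells that express a gene and less of its RNA per cell cannot be told apart.

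Between 33580129 and 59374327 reads fell on genes in a library (median 40075178). MMP2 was at 17.3% to 19.8% of its control level in MMP2sh1 and at 48.6% to 61.9% in MMP2sh2 over the 3 days, below the control in every shRNA group. The osteoblast-lineage genes RUNX2 (30.0 to 63.7 CPM), COL1A1 (1005 to 1485 CPM) and SPARC (1182 to 2074 CPM) were present in all libraries, whereas IBSP had no count in any library, SP7 none in 15, COL1A2 none in 6 and BGLAP none in 5. COL1A2 reached at most 0.683 CPM and BGLAP 0.570 CPM, and ALPL ranged from 0.397 to 6.98 CPM. These markers moved with expansion in the control, where RUNX2 (0.66 on the log2 scale) and SPARC (0.32) were called higher and ALPL (−1.18) and COL1A1 (−0.15) lower from day −2 to day +2. Their part in the results below was not tested. Of 6 smooth muscle markers, only SMTN was above 3 CPM (92.8 to 130 CPM), and the defining markers MYH11 (1.31 to 2.96 CPM), DES (0 to 0.623 CPM) and SYNPO2 (0 to 0.564 CPM) were at or near 0. CPM is the count scaled to library size, with TMM factors.

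Promoter sequence was available from RefSeq (GRCh38.p14) for 8 of the 10 genes, in 11 windows that run from 250 bases before to 50 bases after a transcription start site. TAGLN and MYL9 had no entry. The windows were searched for the CArG box by name, which reads the same on both strands. CNN2, ACTG2 and SRF held at least 1 exact box before the start site, and the other 5 did not. Of all 27305 genes with a window, 1.6% held an exact box, as did 1.29% of all 35116 windows. ACTA2 had no exact box but held 2 that departed from the element at 1 base. A match with at most 1 departure was found in 22.3% of all genes and 18.9% of all windows. The stretches are shown because they carry the element that defines the programme, with boxes in capitals and 20 bases to either side, cut at the start site.
ACTA2, chr10:88952815-88952914, minus strand: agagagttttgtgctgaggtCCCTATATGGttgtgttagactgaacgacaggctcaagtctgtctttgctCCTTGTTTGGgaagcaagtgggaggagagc
ACTG2, chr2:73892878-73892964, plus strand: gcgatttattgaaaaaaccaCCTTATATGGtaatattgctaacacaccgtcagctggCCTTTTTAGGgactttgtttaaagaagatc
CNN2, chr19:1026499-1026548, plus strand: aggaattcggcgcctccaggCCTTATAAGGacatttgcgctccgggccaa
SRF, chr6:43171219-43171268, plus strand: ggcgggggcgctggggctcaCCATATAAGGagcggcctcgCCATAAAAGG
In these stretches, the ACTG2 boxes began 110 and 73 bases before the start site, the CNN2 box 89 bases, the SRF boxes 30 and 10 bases, and the looser ACTA2 boxes 121 and 71 bases. A match describes the letters of the window and is not evidence of binding. The genes with an exact box behaved differently from one another in the measurements below, since CNN2, SRF and ACTG2 had 3 different time courses.

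The members' levels in every library are plotted by day below. Apart from the rare ACTG2, TAGLN and CNN1 stood out by the size of their loss, and TPM1 by its timing. From few counts, ACTG2 fell further than both in the control and in MMP2sh1, to 5.26% and 8.36% of its day −2 level at day +2.

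**Figure D1:**
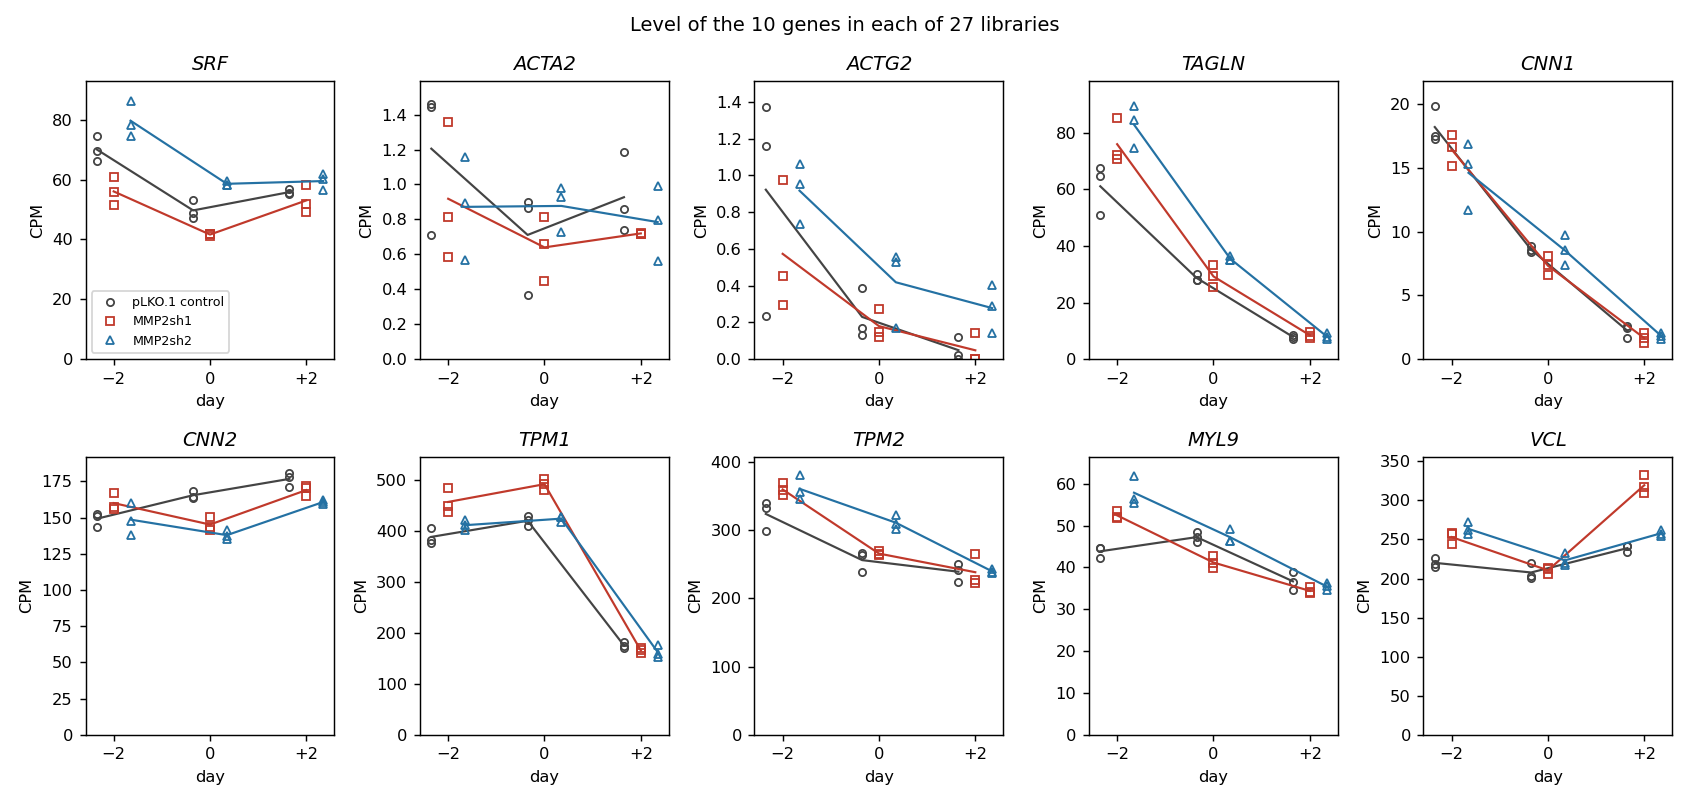
Level of each of the 10 genes in CPM (vertical axis, from 0, a separate scale for each gene) by day of culture (horizontal axis) in each of 27 libraries. Points are libraries, lines join the means of 3 libraries, and points of the 3 lines are set slightly apart at each day. TAGLN and CNN1 fell at each step in all 3 lines, TPM1 fell after day 0, and ACTA2 and ACTG2 stayed below 1.5 CPM.

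TAGLN (chr11:117070086-117078180, plus strand, GRCh37) encodes transgelin, an actin cross-linking protein of contractile cells also called SM22α. In the control, it was at 64.9, 67.5 and 50.8 CPM in the 3 libraries of day −2, at 30.1, 27.9 and 28.1 CPM at day 0, and at 7.15, 8.61 and 7.79 CPM at day +2. The 3 days did not overlap, and the level at day +2 was 12.8% of that at day −2. In MMP2sh1 the mean went from 76.0 ± 8.05 CPM (SD, n = 3) through 29.2 ± 3.87 to 8.45 ± 0.98, and in MMP2sh2 from 82.9 ± 7.56 through 35.5 ± 0.99 to 8.05 ± 1.04. From day −2 to day +2, the log2 fold change was −2.95 in the control (standard error 0.10, edgeR quasi-likelihood adjusted p = 2.97e-19), −3.17 in MMP2sh1 (0.10, edgeR adjusted p = 1.05e-17) and −3.36 in MMP2sh2 (0.09, edgeR adjusted p = 1.2e-23). The step after confluence was the larger in each line, at −1.85, −1.78 and −2.11 against −1.09, −1.38 and −1.23 for the step up to it, a difference that was not tested. Of all genes tested in the control from day −2 to day +2, 0.665% had a lower log2 fold change than TAGLN. A share of 47.8% of its exon bases lies in other annotated genes. Of these, PCSK7 lies on the opposite strand and shares 2233 bases, where reads cannot be assigned to one gene because strand was not used in counting. The other lies on the same strand, shares 2498 bases and is not among the counted symbols.

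CNN1 (chr19:11649582-11661138, plus strand) encodes calponin 1, which binds actin and restrains the myosin ATPase in smooth muscle. Its time course was close to that of TAGLN in size and timing. In the control, the libraries were at 19.8, 17.3 and 17.5 CPM at day −2, at 8.85, 8.38 and 8.53 CPM at day 0, and at 2.58, 2.43 and 1.65 CPM at day +2, again with no overlap. At day +2 it stood at 12.2% of its day −2 level in the control, at 9.99% in MMP2sh1 and at 12.5% in MMP2sh2, from 49 to 99 counts per library. The log2 fold changes over the whole expansion were −3.04 (standard error 0.14), −3.32 (0.16) and −2.99 (0.16), and the largest of the 3 edgeR adjusted p-values was 3.95e-14. CNN1 and TAGLN were called lower in all 9 comparisons of 2 days within a line.

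CNN2 (chr19:1026585-1039067, plus strand), the calponin of non-muscle cells, behaved in another way from CNN1. The control libraries were at 144, 151 and 152 CPM at day −2, at 164, 164 and 168 CPM at day 0, and at 171, 181 and 178 CPM at day +2. The net rise was small, with a log2 fold change of 0.25 (standard error 0.05, edgeR adjusted p = 6.19e-05). In MMP2sh1 and MMP2sh2 the change over the same days was 0.08 (edgeR adjusted p = 0.295) and 0.12 (edgeR adjusted p = 0.0988). There the level was lowest at day 0, at 145 ± 4.59 CPM and 138 ± 3.36 CPM, and rose after it by 0.23 and 0.25. The fall to day 0 in MMP2sh1, of −0.14 (edgeR adjusted p = 0.0418), was lost with no filter on low counts and in 5 of 6 fits that left out 1 library, all but the one without day −2 replicate 1. The control's step after confluence, of 0.12, was lost with median-of-ratios scaling, with no filter, in the fit of all 27 libraries, with the replicate block and in 5 of 6 such fits, all but the one without day +2 replicate 1, and its step before it, of 0.16, was lost without day −2 replicate 1 (edgeR adjusted p up to 0.177, 0.136 and 0.0634 for the 3 steps).

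TPM1 (chr15:63334819-63364114, plus strand) and TPM2 (chr9:35681989-35690053, minus strand) encode tropomyosins, coiled-coil proteins that lie along the actin filament and govern access of myosin and of filament-severing proteins. TPM1 held its level up to confluence and was lost after it. Control libraries were at 406, 384 and 377 CPM at day −2, at 411, 429 and 422 CPM at day 0, and at 171, 182 and 174 CPM at day +2. The step from day 0 to day +2 was −1.24 on the log2 scale in the control (standard error 0.05, edgeR adjusted p = 1.12e-19), −1.56 in MMP2sh1 (0.04, edgeR adjusted p = 2.52e-18) and −1.36 in MMP2sh2 (0.05, edgeR adjusted p = 4.75e-19). The step before it was 0.12 in the control, which was called, and 0.11 and 0.04 in the shRNA lines, which were not. The control's call of this step was lost in the fit of all 27 libraries, with the replicate block and without day −2 replicate 2 or 3 or day 0 replicate 2 or 3 (edgeR adjusted p up to 0.0965).

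TPM2 had the opposite order in the control and in MMP2sh1, with the larger step before confluence, but not in MMP2sh2. In the control, the libraries were at 333, 340.5 and 299 CPM at day −2, at 267, 238 and 263 CPM at day 0, and at 225, 251 and 242 CPM at day +2, and days 0 and +2 overlapped. The step to day 0 was −0.33 (standard error 0.05, edgeR adjusted p = 6.3e-06), and the step after it was −0.08 (edgeR adjusted p = 0.235). Over the whole expansion, TPM2 fell by 0.43, 0.60 and 0.58 on the log2 scale in the control, MMP2sh1 and MMP2sh2. In MMP2sh2 both steps were called, at −0.22 and −0.35. In MMP2sh1 the second step was −0.15 (edgeR adjusted p = 0.034) and was lost in 5 of 6 fits that left out 1 library, all but the one without day +2 replicate 1, with an adjusted p of up to 0.188.

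MYL9 (chr20:35169900-35179850, plus strand) encodes a regulatory myosin light chain whose phosphorylation switches on contraction. Its control libraries were at 42.3, 44.7 and 44.5 CPM at day −2, at 47.2, 46.0 and 48.5 CPM at day 0, and at 34.7, 38.8 and 36.5 CPM at day +2. The level at day +2 was below the other 2 days in all libraries, and the log2 fold change from day −2 was −0.25 (standard error 0.07, edgeR adjusted p = 0.00197). In MMP2sh1 the means were 52.4 ± 0.90, 41.2 ± 1.37 and 34.4 ± 0.82 CPM, and in MMP2sh2 57.9 ± 3.52, 47.2 ± 1.62 and 35.5 ± 0.88 CPM. The fall in these lines thus began before confluence, with a step to day 0 of −0.35 and −0.30 that was called in both, against 0.11 in the control (edgeR adjusted p = 0.146).

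VCL (chr10:75754951-75881121, plus strand) encodes vinculin, which links actin filaments to integrin and cadherin adhesions under tension. Libraries of the control were at 215, 219 and 226.4 CPM at day −2, at 203, 219 and 201 CPM at day 0, and at 242, 241 and 234 CPM at day +2. The net change was 0.12 on the log2 scale (standard error 0.05, edgeR adjusted p = 0.0214) and was lost without day −2 replicate 1 or 2 or day +2 replicate 2 (edgeR adjusted p up to 0.109). In each line VCL rose after confluence, by 0.22 in the control, by 0.61 in MMP2sh1 and by 0.23 in MMP2sh2. In both shRNA lines this rise followed a fall to day 0, of −0.26 and −0.24. VCL was the 1 member called higher at day +2 than at day −2 in MMP2sh1 (0.33, standard error 0.06, edgeR adjusted p = 3.09e-05).

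SRF (chr6:43139007-43149244, plus strand) was lowest at confluence in the control and in MMP2sh1. In the control, the libraries were at 69.4, 74.5 and 66.4 CPM at day −2, at 48.8, 47.0 and 53.3 CPM at day 0, and at 55.4, 56.9 and 55.3 CPM at day +2. The fall to day 0 was −0.49 in the control (standard error 0.06, edgeR adjusted p = 2.76e-07), −0.43 in MMP2sh1 and −0.45 in MMP2sh2, all called. A rise followed in the control (0.19, edgeR adjusted p = 0.0124) and in MMP2sh1 (0.36, edgeR adjusted p = 0.000114), while the value in MMP2sh2 was 0.05 (edgeR adjusted p = 0.572). The control's rise was lost without day 0 replicate 1 or 2 (edgeR adjusted p up to 0.0686). Between days −2 and +2, SRF was lower in the control (−0.32) and in MMP2sh2 (−0.41), and the value in MMP2sh1 was −0.08 (edgeR adjusted p = 0.397). The mRNA of the factor therefore changed far less than TAGLN, CNN1 and TPM1 did.

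ACTA2 (chr10:90694831-90751096, minus strand), the smooth muscle α-actin, was close to the limit of detection. It had 15 to 63 counts per library, or 0.365 to 1.46 CPM. No comparison called it, and from day −2 to day +2 in the control the log2 fold change was −0.35, with a 95% interval from −1.11 to 0.41. This interval includes a 2-fold fall, so a fall of that size is not excluded. A share of 36.2% of its exon bases lies in other genes, including ACTA2-AS1 and FAS on the opposite strand.

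ACTG2 (chr2:74119441-74146992, plus strand), the γ-actin of enteric smooth muscle, was also rare but fell. In the control it had 67, 58 and 8 counts at day −2, 18, 6 and 7 at day 0, and 0, 1 and 5 at day +2, and the first 2 days overlapped. In MMP2sh1 there were 36, 21 and 12 counts at day −2, then 9, 11 and 4, then 0, 0 and 6. In MMP2sh2 there were 44, 47 and 26 counts at day −2, then 6, 19 and 21, then 12, 6 and 17. ACTG2 did not pass the filter on low counts in the control between days −2 and +2. DESeq2, which tested it there, called it lower (−4.22, standard error 0.92, DESeq2 adjusted p = 2.16e-05). By edgeR it was called lower over these days in MMP2sh1 (−3.45, standard error 0.92, edgeR adjusted p = 0.00268) and in MMP2sh2 (−1.71, standard error 0.54, edgeR adjusted p = 0.00815), and in the control from day −2 to day 0 (−2.00, standard error 0.60, edgeR adjusted p = 0.00994). The MMP2sh2 call was lost without day +2 replicate 2 (edgeR adjusted p = 0.0504) and the control call without day −2 replicate 1 or 2 (up to 0.0893). In MMP2sh1, leaving out day +2 replicate 3 leaves that day with no count, and the fitted value, −7.53, is then not a bound.

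Per kilobase of transcript, the smooth muscle actins were the lowest of the 10 genes. In the control at day −2, ACTA2 and ACTG2 were at 0.893 and 0.614 CPM per kilobase of the canonical transcript, against 12.1 for CNN1, the next lowest. With the union of all annotated exons as the length they were at 0.214 and 0.242 CPM per kilobase, against 6.41 for CNN1. TPM2 was the highest by the second length (102) and TPM1 by the first (320), so the order of the tropomyosins depended on the length used.

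Between day −2 and day +2, 8 of the 9 members tested were called in the control, 2 higher (CNN2, VCL) and 6 lower (TAGLN, CNN1, TPM1, TPM2, MYL9, SRF), where 56.8% of all genes tested were called, 28.1% higher and 28.6% lower. In MMP2sh1, 7 of 10 were called, 1 higher (VCL) and 6 lower, against 54.9% of all genes, 27.3% higher and 27.7% lower. In MMP2sh2, 7 of 10 were called, all lower, against 54.7% of all genes, 27.7% higher and 27.1% lower. DESeq2 also called ACTG2 lower in the control. The median log2 fold change of the members tested was −0.35, −0.60 and −0.64 in the 3 lines, and that of all genes was 0.03, 0.04 and 0.05. Of the members tested in the 3 lines, 3 of 9, 4 of 10 and 4 of 10 changed by more than 2-fold. ACTG2 was not tested by edgeR in the control, so the first count is not lower for a smaller change there. The share of all genes over 2-fold was not counted. The median absolute log2 fold change was 0.35, 0.60 and 0.64 for the members and 0.41, 0.44 and 0.42 for all genes.

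**Figure D2:**
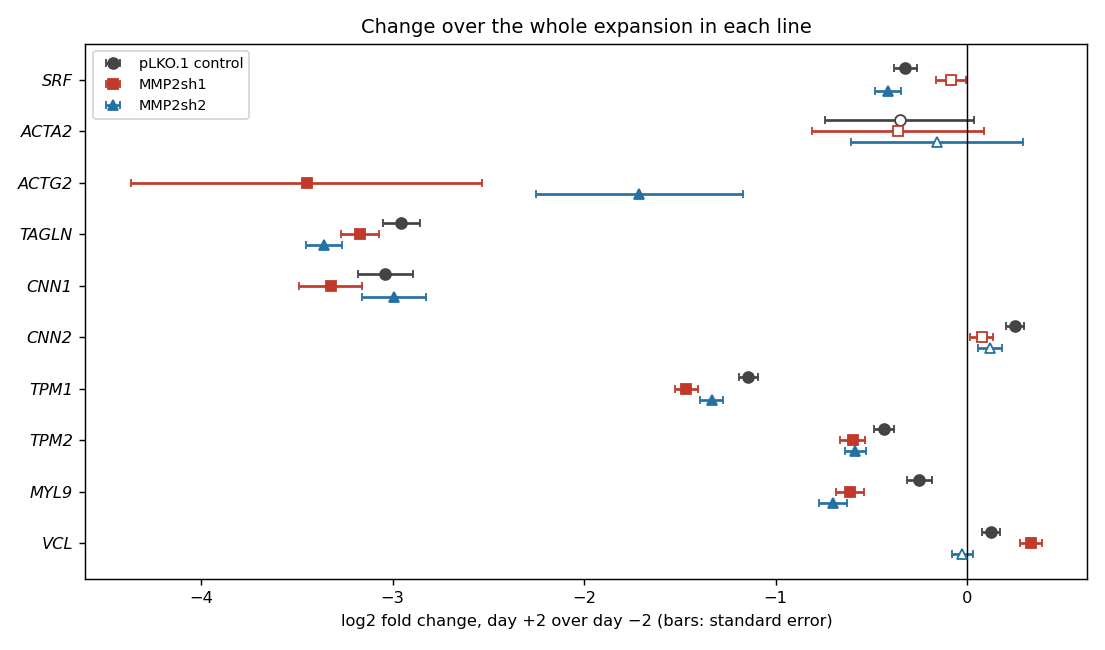
Log2 fold change from day −2 to day +2 (horizontal axis) of each gene in the control, MMP2sh1 and MMP2sh2, with bars of 1 standard error, from fits of 6 libraries each. Filled symbols are called and open symbols are not. TAGLN, CNN1 and TPM1 lie between −3.36 and −1.14 in all 3 lines, while CNN2, VCL and SRF lie within 0.42 of 0. ACTG2 was not tested in the control.

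The steps differed in direction. From day −2 to day 0, 7 of 10 members were called in the control, 2 higher and 5 lower, against 35.5% of all genes, 16.4% higher and 19.1% lower. In MMP2sh1, 7 of 10 were called, all lower, against 32.7% of all genes, 15.0% higher and 17.7% lower. In MMP2sh2, 6 of 10 were called, all lower, against 30.3% of all genes, 13.9% higher and 16.4% lower. From day 0 to day +2, 7 of 9 were called in the control, 3 higher (CNN2, VCL, SRF) and 4 lower (TAGLN, CNN1, TPM1, MYL9), against 41.4% of all genes, 21.3% higher and 20.1% lower. In MMP2sh1, 8 of 9 were called, 3 higher and 5 lower, against 46.0% of all genes, 23.1% higher and 23.0% lower. In MMP2sh2, 7 of 10 were called, 2 higher and 5 lower, against 45.5% of all genes, 22.5% higher and 23.0% lower. VCL and CNN2 were the members called higher after confluence in all 3 lines.

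The shRNA lines were next compared with the control on the same day, to ask whether depletion of MMP2 altered these genes. Both lines share the control libraries, so their differences from control are given side by side and are not independent of each other. The differences were small. Of 57 differences tested, 17 were called, where 6.32% to 16.8% of all genes were called in a single comparison. The log2 fold changes of the 17 ran from −0.32 to 0.43, and none reached 2-fold.

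At day −2, 5 of 10 members were called in MMP2sh1, where 11.6% of all genes tested were called. TAGLN (0.31, standard error 0.08, edgeR adjusted p = 0.0158), MYL9 (0.26, 0.07, edgeR adjusted p = 0.00977), TPM1 (0.23, 0.05, edgeR adjusted p = 0.00435) and VCL (0.20, 0.05, edgeR adjusted p = 0.0112) were higher, and SRF was lower (−0.32, 0.07, edgeR adjusted p = 0.00251). For TAGLN, the libraries of MMP2sh1 were at 85.2, 70.6 and 72.1 CPM, all above those of the control. In MMP2sh2, 3 of 10 were called, against 11.0% of all genes. These were TAGLN (0.43, 0.08, edgeR adjusted p = 0.00112), MYL9 (0.40, 0.07, edgeR adjusted p = 0.000452) and VCL (0.26, 0.05, edgeR adjusted p = 0.00209), all higher. For MYL9, the libraries of MMP2sh2 were at 55.3, 56.3 and 61.9 CPM, and those of MMP2sh1 at 53.4, 51.7 and 52.1 CPM, all above the control's highest, 44.7 CPM. In MMP2sh1, the TAGLN call was lost without control replicate 3 or MMP2sh1 replicate 1 (edgeR adjusted p up to 0.152). The MYL9 call was lost without control replicate 1 (edgeR adjusted p = 0.086), and the VCL call without control replicate 1 or 2 or MMP2sh1 replicate 2 (up to 0.101). With control replicate 1 left out, 3 members were called in place of 5. The 3 calls in MMP2sh2 held in each such fit. The background moved too. Without control replicate 1, the calls over all genes went from 2184 to 1321 in MMP2sh1 and from 2080 to 728 in MMP2sh2. In MMP2sh2 they went to 1174, 1252 and 1360 without control replicate 2, control replicate 3 and MMP2sh2 replicate 3.

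At day 0, 4 of the 9 members tested were called in MMP2sh1, against 16.8% of all genes. TPM1 was higher (0.23, standard error 0.04, edgeR adjusted p = 3.17e-05), with libraries at 503, 493 and 482 CPM, above all of the control. CNN2 (−0.19, edgeR adjusted p = 0.00159), MYL9 (−0.20, edgeR adjusted p = 0.0185) and SRF (−0.26, edgeR adjusted p = 0.00277) were lower. In MMP2sh2, 4 of 10 were called, against 12.9% of all genes. TAGLN (0.29, edgeR adjusted p = 0.00462), TPM2 (0.27, edgeR adjusted p = 4.62e-05) and SRF (0.22, edgeR adjusted p = 0.0106) were higher and CNN2 was lower (−0.28, edgeR adjusted p = 2.94e-05). CNN2 was below every control library in all libraries of both lines, at 142 to 150 CPM in MMP2sh1 and 135 to 141 CPM in MMP2sh2 against 164 to 168 CPM. The MYL9 call was lost without replicate 1 or 3 of either line (edgeR adjusted p up to 0.0881), and the SRF call in MMP2sh2 without control replicate 1 or 2 (up to 0.0689).

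At day +2, the only member called in MMP2sh1 was VCL, among 9 tested and against 14.8% of all genes. Its libraries were at 309, 332 and 317 CPM, against 242, 241 and 234 CPM in the control (0.42, standard error 0.05, edgeR adjusted p = 5.86e-07), and the call held with each library left out. In MMP2sh2, 0 of 9 members were called by edgeR's quasi-likelihood test, against 6.32% of all genes. CNN2 (−0.14) and VCL (0.11) had an unadjusted p under 0.05, and DESeq2 called 1 member, CNN2 (−0.14, DESeq2 adjusted p = 0.0337). Without MMP2sh2 replicate 3, 1 member was called. TAGLN was at 8.45 ± 0.98 and 8.05 ± 1.04 CPM in the shRNA lines and at 7.85 ± 0.73 CPM in the control, and TPM1 at 166 ± 4.38, 163 ± 11.8 and 176 ± 5.96 CPM. For TAGLN, the 95% interval of the difference from control ran from −0.16 to 0.37 in MMP2sh1 and from −0.23 to 0.30 in MMP2sh2.

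**Figure D3:**
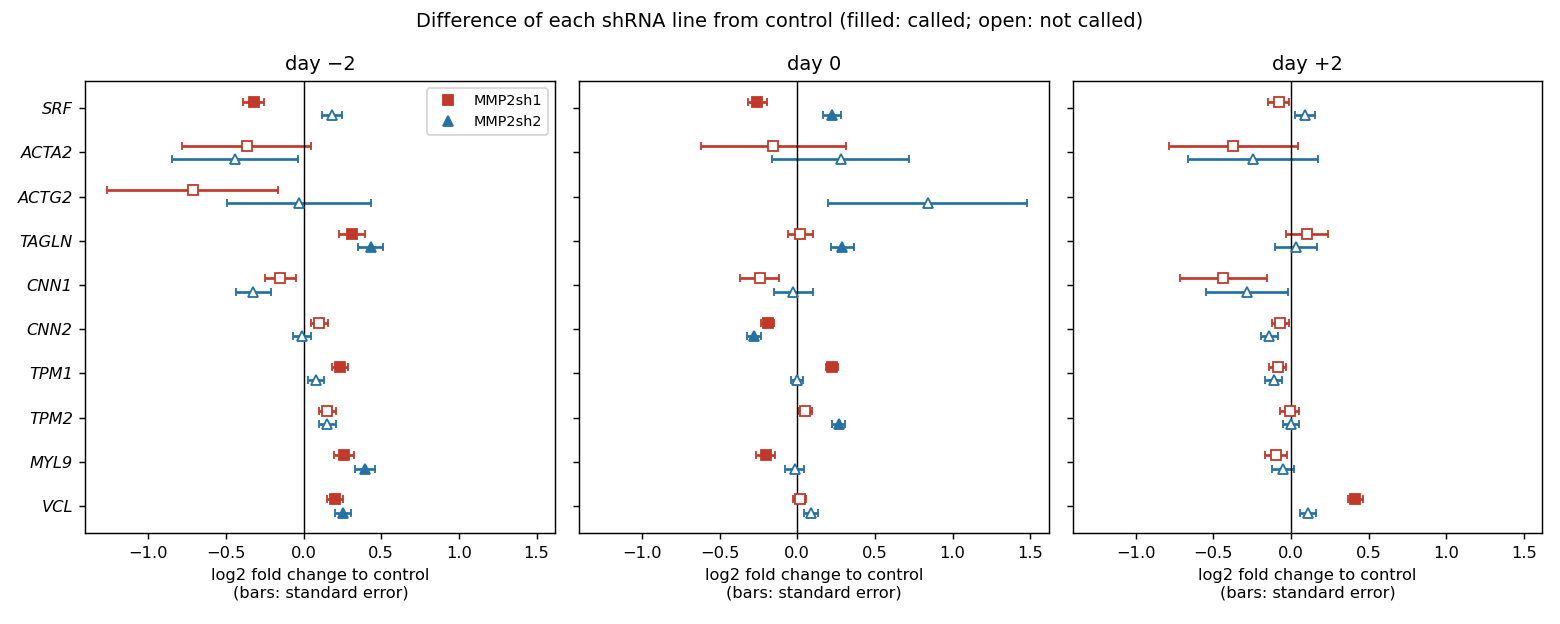
Log2 fold change of MMP2sh1 and MMP2sh2 against the control (horizontal axis) for each gene at day −2, day 0 and day +2, with bars of 1 standard error, from 3 libraries against 3. Filled symbols are called, open symbols are not, and ACTG2 is missing where it was not tested. Called values lie between −0.32 and 0.43, and VCL in MMP2sh1 is the only filled symbol at day +2.

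SRF stood on opposite sides of the control in the shRNA lines. At day −2 it was at 51.7, 55.8 and 60.8 CPM in MMP2sh1 and at 74.6, 78.3 and 86.3 CPM in MMP2sh2, with the control at 66.4 to 74.5 CPM between them. At day 0 it was at 41.3, 41.7 and 42.0 CPM in MMP2sh1 and at 58.1, 58.2 and 59.5 CPM in MMP2sh2, with the control at 47.0 to 53.3 CPM. The direct comparison of MMP2sh1 with MMP2sh2 gave −0.51 at day −2 (standard error 0.08, edgeR adjusted p = 2.88e-05), −0.48 at day 0 (0.06, edgeR adjusted p = 1.34e-07) and −0.17 at day +2 (0.07, edgeR adjusted p = 0.163). The calls at days −2 and 0 held with each library left out. Against the control, the MMP2sh2 value at day −2 was 0.18 (edgeR adjusted p = 0.072) and was called by DESeq2 only (0.19, DESeq2 adjusted p = 0.0442).

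SRF was the 1 member of 10 called between the shRNA lines at day −2, where 10.7% of all genes were called. At day 0, 5 of 10 were called, against 18.5% of all genes. TPM1 was higher in MMP2sh1 (0.23, edgeR adjusted p = 4.77e-06), and TAGLN (−0.27, edgeR adjusted p = 0.0127), MYL9 (−0.18, edgeR adjusted p = 0.0345), TPM2 (−0.21, edgeR adjusted p = 5.07e-05) and SRF were lower. The TAGLN call was lost without MMP2sh1 replicate 1 (edgeR adjusted p = 0.168) and the MYL9 call without replicate 1 or 3 of either line (up to 0.156). Without MMP2sh1 replicate 1, 3 members were called. At day +2, 1 of 9 was called, VCL (0.31, standard error 0.05, edgeR adjusted p = 0.000299), against 7.86% of all genes. Without MMP2sh1 replicate 1 or 3 at that day, 2 members were called.

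Whether the change from day −2 to day +2 differed between a line and the control was tested as an interaction in 12 libraries. For MMP2sh1, 2 of 10 members were called, against 7.40% of all genes. The additional change was −0.35 for MYL9 (standard error 0.09, edgeR adjusted p = 0.0184) and −0.32 for TPM1 (0.07, edgeR adjusted p = 0.00617). The MYL9 call was lost without control day +2 replicate 2 (−0.31, edgeR adjusted p = 0.0797), which left 1 member called. For MMP2sh2, 1 of 10 was called, against 4.98% of all genes, again MYL9 (−0.45, standard error 0.10, edgeR adjusted p = 0.00345), and 2 without MMP2sh2 day +2 replicate 3. For TAGLN and CNN1, the additional change was −0.21 and −0.28 in MMP2sh1 and −0.40 and 0.04 in MMP2sh2, and none of these was called.

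Among the cofactors of SRF, MKL1 fell with expansion. The control was at 92.3, 84.1 and 92.5 CPM at day −2, at 71.1, 75.7 and 79.6 CPM at day 0, and at 53.5, 58.2 and 54.5 CPM at day +2, with no overlap between days. The log2 fold change over the expansion was −0.69 in the control (standard error 0.06, edgeR adjusted p = 7.82e-11), −0.60 in MMP2sh1 (edgeR adjusted p = 8.85e-08) and −0.66 in MMP2sh2 (edgeR adjusted p = 1.11e-09). MKL2 fell in the control (−0.26, edgeR adjusted p = 0.000899), with values of −0.01 and −0.07 in the shRNA lines that were not called. Of the ternary complex factors, ELK3 rose in all 3 lines, by 0.38, 0.51 and 0.51. ELK1 rose in the control (0.18) and ELK4 in MMP2sh1 (0.36) and MMP2sh2 (0.22).

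MYOCD, which encodes myocardin, was rare, and in the control it was highest at confluence. It had 50, 30 and 25 counts at day −2, 124, 107 and 119 at day 0, and 49, 69 and 55 at day +2. The rise to day 0 was 1.77 (standard error 0.29, edgeR adjusted p = 2.09e-05). It was lower in the shRNA lines at day 0, with 56, 34 and 35 counts in MMP2sh1 (−1.49, standard error 0.28, edgeR adjusted p = 0.000162) and 16, 10 and 12 in MMP2sh2 (−2.92, standard error 0.35, edgeR adjusted p = 1.08e-07). These day 0 differences held with each library left out and under every alternative fit. At day +2 it was also called lower, at −1.34 and −1.73. The MMP2sh1 call at day +2 was lost without control replicate 2 or MMP2sh1 replicate 1 or 2 (edgeR adjusted p up to 0.0995). At day −2 the values were −1.65 in MMP2sh1 (edgeR adjusted p = 0.0702) and −2.71 in MMP2sh2 (edgeR adjusted p = 0.0116), and the latter was lost with DESeq2 and without control replicate 1 or MMP2sh2 replicate 1 or 2 (up to 0.0779). The control's net rise from day −2 to day +2 (0.93, edgeR adjusted p = 0.0261) was lost in the fit of all 27 libraries and without day −2 replicate 2 or day +2 replicate 2 (up to 0.103). In MMP2sh2 it had 1, 3 and 10 counts at day −2 and 13, 24 and 19 at day +2, and day +2 was not below day 0 there (0.37, edgeR adjusted p = 0.636). Over the days on which MYOCD rose in the control, TAGLN, CNN1, TPM2, ACTG2 and SRF were called lower and CNN2 and TPM1 higher. A link between MYOCD and these genes was not tested.

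Of the immediate early genes that SRF binds, 6 of 7 were called higher and none lower from day −2 to day +2 in the control, where 28.1% of all genes were called higher and 28.6% lower. FOSB, at 0.46, was not called. FOS, a subunit of the AP-1 factor, was at 6.42, 6.56 and 5.47 CPM at day −2 and at 25.1, 27.2 and 26.1 CPM at day +2 (2.09, standard error 0.10, edgeR adjusted p = 8.28e-16). EGR2, a zinc finger factor, rose by 1.71 from 19 to 27 counts per library to 57 to 88. EGR1, its relative, rose by 1.61, and its level was 48.5, 47.6 and 44.5 CPM at day −2 and 148, 138 and 142 CPM at day +2. Up to confluence in the control, FOS was called higher (0.46, edgeR adjusted p = 0.00853), EGR1 (−0.41) and JUNB (−0.25) lower and the other 4 not at all. Between days 0 and +2, 7 of 7 were called higher in the control, against 21.3% of all genes. They include FOSB and EGR3, which had at most 33 and 76 counts in any library of the series. In each shRNA line 6 of 7 were called higher, against 23.1% in MMP2sh1 and 22.5% in MMP2sh2. The median over the list for these days was 2.04 in the control, against 0.01 for all genes. In MMP2sh1, EGR1 was above control at day −2 (0.41, edgeR adjusted p = 0.000652) and day +2 (0.38, edgeR adjusted p = 8e-06), and JUNB was below it at day +2 (−0.34, edgeR adjusted p = 0.00279), a call lost without control replicate 2 (0.0505).

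Of 19 other filament and motor genes tested in the control from day −2 to day +2, 10 were called lower and 3 higher, with a median of −0.22, where 28.6% of all genes were called lower and 28.1% higher. TAGLN2, the non-muscle relative of TAGLN, fell from 1120.4 to 1246 CPM to 514 to 565 CPM (−1.13, standard error 0.05, edgeR adjusted p = 1e-16). LMOD1, which nucleates actin filaments in smooth muscle, rose by 0.83 from low counts (29 to 114 per library over the series), and the call was lost without day +2 replicate 1 or 3 (edgeR adjusted p up to 0.0597). Of 15 focal adhesion genes, 10 were called lower and 4 higher, against the same shares of all genes, with a median of −0.25, led by the cross-linker FLNA (−0.69) and the LIM protein gene CSRP1 (−0.64). The median of all genes in this comparison was 0.03.

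**Figure D4:**
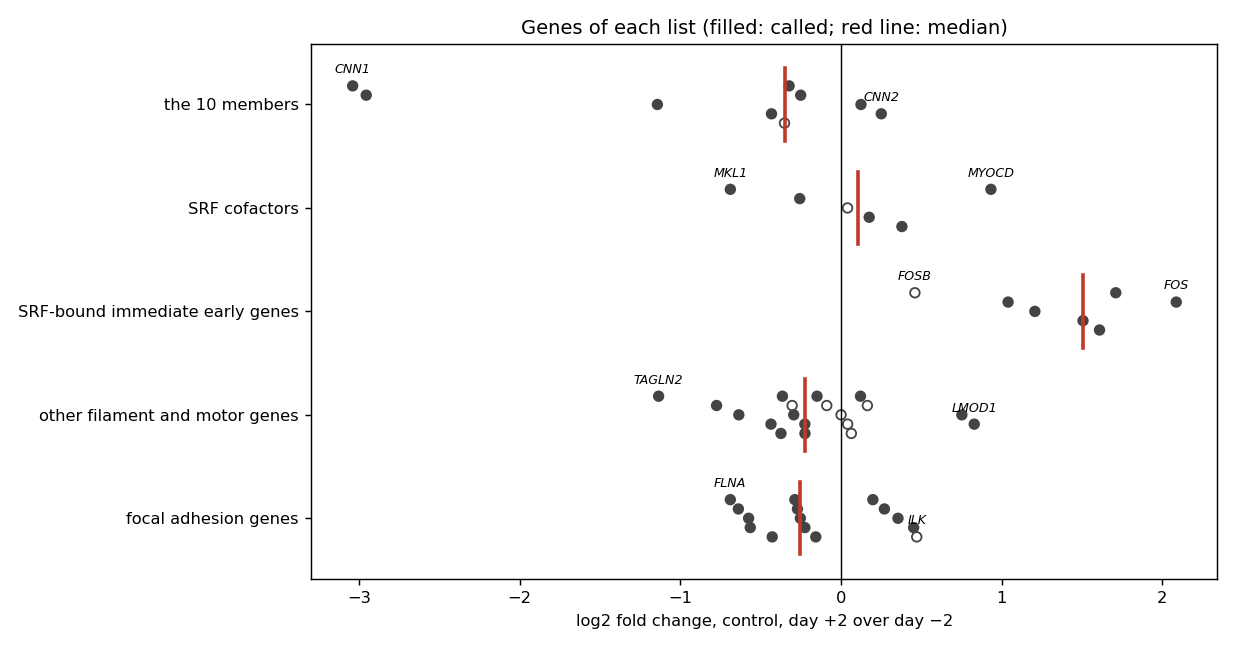
Log2 fold change from day −2 to day +2 in the control (horizontal axis) of the genes tested in each list, 1 point a gene, from 3 libraries against 3. Filled points are called, red lines are list medians, the lowest and highest gene of each list are named, and vertical spread within a list carries no value. The immediate early genes lie at or above 0.46, and the filament and adhesion lists have medians of −0.22 and −0.25.

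In MMP2sh1 against the control, these lists had calls in both directions. The shares of all genes called were 11.6% at day −2, 16.8% at day 0 and 14.8% at day +2. Among filament and motor genes, 3 were higher and 3 lower of 19 tested at day −2, 2 and 3 of 18 at day 0, and 4 and 3 of 19 at day +2. The largest called values were those of CALD1 (−0.25) and TPM4 (−0.25) at day −2, TPM4 (−0.47) and MYH9 (−0.45) at day 0, and MYLK (0.59) and ACTN4 (0.23) at day +2. MYLK encodes the kinase that phosphorylates the myosin light chain, and it was at 103, 101 and 99.4 CPM against 71.6, 65.9 and 63.4 CPM in the control (edgeR adjusted p = 2.83e-08). Among the 15 focal adhesion genes, all tested, 0 were higher and 1 lower at day −2 (ITGB1, −0.41), 1 and 7 at day 0 (led by ITGB1, −0.36, and TGFB1I1, −0.27), and 5 and 0 at day +2 (led by PDLIM5, 0.52, and LPP, 0.27). Leaving out control replicate 1 lost the CALD1 call at day −2 (edgeR adjusted p = 0.0595). Leaving out MMP2sh1 replicate 2 lost TGFB1I1 at day 0 (0.102), and leaving out control replicate 2 lost LPP at day +2 (0.0556). MMP2sh1 was also compared directly with MMP2sh2. At day +2, MYLK (0.71), ACTN4 (0.21) and PDLIM5 (0.34) were called higher in MMP2sh1. TPM4 (−0.32) and ITGB1 (−0.23) were called lower at day −2. At day 0, TPM4 (−0.36), MYH9 (−0.55), ITGB1 (−0.20) and TGFB1I1 (−0.25) were called lower. CALD1 at day −2 (−0.15) and LPP at day +2 (0.08) were not called. A called difference between the shRNA lines does not show that MMP2sh2 was unchanged. At day 0, ITGB1 was also called lower than control in MMP2sh2 (−0.16, edgeR adjusted p = 0.00316). The values against the control above are of MMP2sh1, and those of MMP2sh2 are not given for the other genes.

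The genes most like a member in level over the 27 libraries were listed by Pearson's r of log2 CPM, among 11738 or 11739 genes with a mean of at least 5 CPM. For SRF they were CDC42EP1 (r = 0.946), ZFP41 (0.936) and SDC4 (0.934). For TAGLN they were CCDC85C (0.990), HN1 (0.990) and NOC2L (0.989), and for ACTA2 DYRK2 (0.575), HOXD8 (0.538) and ATP6V1D (0.523). Among the members, TAGLN had an r of 0.969 with CNN1 and of 0.885 with TPM1, but of 0.376 with SRF and 0.166 with ACTA2. The 27 points share lines, days and library depth, so these values describe the series and carry no test.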

How the data were processed

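RNA-Seq of poly(A) RNA from 27 U2OS libraries was used. Before deposit, the authors used Trim Galore 0.6.0 for trimming, STAR 2.7.3a for alignment of read pairs to hg19, Samtools for filtering by quality and HTSeq 2.0.0 for counting over exons (minimum quality 10, no strand, union mode). The files hold unnormalised counts for each symbol as deposited. The 5 summary lines without a gene name held 16.8% to 19.1% of each library's total and were left out. The annotation release used for counting was not given in the sources used here.

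Samples were grouped by line and day from their labels. Each of 20 comparisons was fitted on its own libraries (6, or 12 for an interaction) with edgeR 4.0.16 in R 4.3.3, by the quasi-likelihood test after TMM scaling and filterByExpr (10 counts at least, 15 in total). P-values were adjusted by Benjamini and Hochberg's method over every gene tested, and a gene under 0.05 was called. Its standard error is the log2 fold change divided by the square root of F, and 95% intervals are 1.96 standard errors to either side. Replicate libraries differed by more than sampling noise, and p-values measure the spread between them. Intervals and zero counts reflect depth only as far as reads are independent, since no molecular identifiers were used.

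The members and gene lists were chosen with earlier results of these data known. All members and SRF cofactors are named, and of each other list described the 2 genes with the largest called change in the control from day −2 to day +2 and in MMP2sh1 against control on each day. Results of 1 further list are not reported here. EGR1 in the control was named in addition, after its values were seen, and EGR3 was named only for its low counts. Positions are from GENCODE 44 on GRCh37. Promoter windows are RefSeq sequences on GRCh38.p14 and were not joined to GRCh37 positions. No 100-base window of the canonical ACTA2, ACTG2, TAGLN, CNN1, CNN2, MYL9, TPM1 or TPM2 transcripts was found in their listed paralogues. Alternatives were DESeq2 1.42.0, median-of-ratios scaling, no filter, all 27 libraries in one fit, the replicate number as a block, and each library left out. The fits were tested on simulated data with 2-fold changes only, which does not speak for the smaller differences of members between the lines.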

Additional observations from a re-analysis of the deposited data

Results flagged for a closer look

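The change from day −2 to day +2 differed between an shRNA line and the control for 2 members, by edgeR's test of the interaction itself. For MYL9, the additional log2 fold change was −0.35 in MMP2sh1 and −0.45 in MMP2sh2. For TPM1 it was −0.32 in MMP2sh1. In both genes the shRNA line started above the control at day −2 and had a level close to it at day +2. Both interactions use the same control libraries. The MYL9 call in MMP2sh1 was lost without control day +2 replicate 2 (edgeR adjusted p = 0.0797), and the other 2 edgeR calls held with each library left out. DESeq2 also called VCL in MMP2sh1, in the opposite direction (0.21, DESeq2 adjusted p = 0.0143).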

How the results depend on the processing

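Over 91 called results of the members, 455 alternative fits kept the direction in all cases and the call in 448, and 564 fits with 1 library left out kept the call in 518. The 7 calls lost in alternative fits were of TPM1 in the control up to day 0 (all 27 libraries, replicate block), of CNN2 in the control after it (median-of-ratios scaling, no filter, all 27 libraries, replicate block) and of CNN2 in MMP2sh1 up to day 0 (no filter). Of the 101 called results of MMP2 and of other list genes, 496 of 505 alternative fits and 551 of 612 left-out fits kept the call.

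DESeq2 called 5 members in MMP2sh2 against control at day −2, where edgeR called 3, and 1 at day +2, where edgeR called 0. It called 6 members in MMP2sh1 against control at day −2, where edgeR called 5. In the MMP2sh1 interaction it called 3, where edgeR called 2. Between the shRNA lines at day −2, DESeq2, the fit of all 27 libraries and the replicate block each called 2 members in place of 1. The interaction for MMP2sh2 had 2 calls with no filter in place of 1. With 1 library left out, calls ranged from 3 to 5 for MMP2sh1 against control at day −2, from 0 to 1 for MMP2sh2 against control at day +2, from 3 to 5 between the shRNA lines at day 0 and from 1 to 2 at day +2, from 1 to 3 for the MMP2sh1 interaction and from 1 to 2 for the MMP2sh2 interaction. Shares of all genes called in the same fits are not given beside these counts, so the counts do not describe the members alone. With the replicate block, calls over all genes between the shRNA lines at day −2 rose too, from 2009 to 2974. The causes of the changed counts were not tested. Calls over all genes moved by more than 1.5 times only with a library left out, and furthest for MMP2sh2 against control at day −2, where 2080 genes became 728 without control replicate 1.

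Same-numbered replicates did not deviate together (correlations from −0.02 to 0.04, none of 18 comparisons with every pair above 0.1). This gives no sign that the numbers pair the samples, though it cannot exclude a pairing. The replicate block moved calls over all genes by more than 1.5 times in no comparison, and by most between the shRNA lines at day −2, from 2009 to 2974. Depth limits the rarer genes. Among them, ACTA2, ACTG2, MYOCD, FOSB and EGR3 had at most 63, 67, 124, 33 and 76 counts in a library. A rise or fall of ACTA2 within its intervals is not excluded.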
